A study of Homo sapiens with 14 samples.

Results

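To examine where KMT2D lies around the genes of insulin-like growth factor (IGF) binding proteins, the KMT2D ChIP-seq peaks within 100 kb of IGFBP2, IGFBP3, IGFBP5 and IGFBP6 were collected. Peaks were chosen by the position of their summit alone, with gene spans given to the nearest kb on hg19 (GRCh37). Of 13808 peaks in the list, 4 met this rule. The IGFBP3 window held 3 of them and the IGFBP6 window 1, whereas the windows of IGFBP2 and IGFBP5 held 0. The library came from KMT2D-WT SCC23 cells, an established cell line of human HNSCC (squamous carcinoma of the head and neck), deprived of glucose for 6 hours (labelled Low Glucose condition). The series describes 14 samples, and the peak list of 1 library was analysed. No replicate, no input and no KMT2D-KO library was analysed here, so no difference between conditions was tested and all intervals cover counting error only. The list holds no expression values, so neither the cell type label nor the transcription of these genes was checked.

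KMT2D is a histone methyltransferase that places monomethylation on H3K4, chiefly at enhancers, where it acts as a co-activator. IGF-binding proteins are secreted proteins that hold IGF1 and IGF2 and thereby set how much ligand reaches the IGF1 receptor. IGFBP5 has been studied as a KMT2D-dependent gene in melanoma, which raises the question of where KMT2D sat around it in squamous carcinoma cells. In HNSCC, the authors found no change of IGFBP5 expression with KMT2D loss. They state this in their discussion without naming the glucose condition. IGFBP3 is the main carrier of IGFs in blood and a p53-responsive gene, IGFBP6 prefers IGF2 over IGF1, and IGFBP2 is an abundant binding protein of fetal tissues. IGFBP2 and IGFBP5 are neighbours on chromosome 2, transcribed towards each other, and their windows overlap.

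Promoter sequences are shown for the gene with a KMT2D peak closest to its 5′ end and for the gene with its nearest peak farthest away. They are the 250 bases before the start in RefSeq (GRCh38.p14), read 5′ to 3′ on the strand of the gene. Neither is the sequence of a peak, since sequence of the hg19 build was not used here. Capitals mark matches on either strand to an AP-1 site with the letters TGANTCA, a GC box with the letters GGGCGG, an E-box with the letters CACGTG or the core TATAAA of the promoter box of that name. The IGFBP6 promoter lies at chr12:53097417-53097666 on the plus strand and that of IGFBP5 at chr2:216695550-216695799 on the minus strand.
IGFBP6: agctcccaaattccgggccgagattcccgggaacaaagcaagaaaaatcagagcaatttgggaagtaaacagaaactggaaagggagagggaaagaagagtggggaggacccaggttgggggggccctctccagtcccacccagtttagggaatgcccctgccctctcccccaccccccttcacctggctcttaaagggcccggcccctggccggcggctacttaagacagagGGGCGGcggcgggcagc
IGFBP5: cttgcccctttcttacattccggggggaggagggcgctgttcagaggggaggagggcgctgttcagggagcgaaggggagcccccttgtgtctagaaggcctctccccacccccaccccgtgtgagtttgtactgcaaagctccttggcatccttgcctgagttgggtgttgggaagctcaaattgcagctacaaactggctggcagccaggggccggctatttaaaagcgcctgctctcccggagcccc
The IGFBP6 promoter held 1 GC box, which began 17 bases before the start, and the IGFBP5 promoter held 0 matches to the 4 motifs. IGFBP2 held 1 GC box and IGFBP3 held 2, and both lacked the other letters searched. Over 35116 RefSeq promoter entries of the same length, 42.6% held the GC box, 10.7% the core TATAAA, 6.57% the AP-1 site and 6.34% the E-box. GC content was 61.2% in both printed promoters, 69.2% for IGFBP2 and 76.0% for IGFBP3, with a median of 58.0% over all entries. CpG dinucleotides numbered 9 for IGFBP6 and 8 for IGFBP5, against 22 for IGFBP2 and 32 for IGFBP3. These counts describe the sequences and carry no information on factor binding.

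IGFBP6 was the gene with KMT2D inside its own span. The peak covered chromosome 12 positions 53492274 to 53492690, and its summit at position 53492605 lay 1.6 kb downstream of the 5′ end of the gene (span 53491000 to 53496000, plus strand). That distance is approximate, since the gene ends are given to 1 kb. Which exon or intron the peak covers was not determined, because the annotation used here is of another build. Fold enrichment, the ratio of ChIP pileup to local background at the summit, was 4.65, with 23 ChIP fragments over the summit. The local background equalled the genome-wide level (1.00 times). The q-value was 0.00590. Among the 13136 peaks of chromosomes 1 to 22 and X, 63.9% had a fold enrichment at or below this value, while 46.0% had as few or fewer fragments. The peak was thus of middling strength in the list, whose median was a fold enrichment of 4.01 and 25 fragments. It was 417 bp wide, against a median of 344 bp.

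The IGFBP6 peak stood alone in its immediate surroundings. Its nearest other summit was 123.0 kb away, whereas the median distance over the list was 8.68 kb, and 89.3% of peaks had a neighbour as close or closer. Just outside the window, a peak lay 125.1 kb before the gene with a fold enrichment of 5.38 and another lay 119.6 kb beyond it with 3.74. Between 100 and 200 kb from IGFBP6 there were 12 further peaks, 9 on the side of lower coordinates and 3 on the other. Their fold enrichment ranged from 2.84 to 9.72 and 8 of them had a q-value of at most 0.05. The share of all peaks at that threshold was 58.8%. Extending the reach to 1000 kb on each side gave 41 peaks, or 20.4 per Mb (95% Poisson interval 14.7 to 27.7), of which 30 had a q-value of at most 0.05. The whole list averaged 4.49 per Mb. Of 1449 tiles of that length along chromosomes 1 to 22 and X, 1.66% held as many peaks or more. Neighbouring peaks occur in groups, which makes the Poisson interval too narrow, and this reach was chosen after the counts were seen. Part of the 41 peaks formed a block from -980.5 to -816.1 kb along the gene, where negative values lie upstream of the 5′ end. This block held the highest fold enrichment within the reach, 15.0, and no peak lay between -816.1 and -225.7 kb. The density at 1000 kb is thus not that of the immediate surroundings of IGFBP6.

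IGFBP3 had peaks on both sides and none inside its span (chromosome 7 positions 45952000 to 45961000, minus strand). The peak with the highest fold enrichment covered positions 46017750 to 46018232, and its summit lay 57.0 kb upstream of the 5′ end. Its fold enrichment was 6.71, with 57 fragments over the summit, a width of 483 bp and a q-value of 2.26e-10. Of all peaks, 84.7% had a fold enrichment at or below this and 91.3% had as few or fewer fragments. Its local background was raised to 2.18 times that of the genome as a whole, and the part of this in the result was not tested. A background of at least 2 times was found at 15.2% of peaks. The number of control reads behind these ratios was not determined, and such ratios can rest on few reads. This was the strongest of the 4 peaks by fragments, fold enrichment and q-value.

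The other IGFBP3 peaks were weaker and lay on the other side of the gene, the side of IGFBP1, which is its neighbour in GENCODE 44 and encodes a liver-enriched binding protein. One covered positions 45914171 to 45914602, with its summit 46.6 kb from the 5′ end of IGFBP3 in the direction of transcription. It had a fold enrichment of 3.11, 19 fragments and a q-value of 0.371, over a background of 1.51 times the genome-wide level. The other covered positions 45851918 to 45852149, with its summit 108.9 kb from the same end. It had a fold enrichment of 3.74, 18 fragments and a q-value of 0.217 over a background of 1.00 times. Neither met a q-value of 0.05, and their position relative to IGFBP1 was not analysed here. The farther of them lay 0.083 kb inside the limit of the window, less than the 1 kb to which the gene ends are given. The closest peak outside the limit was 111.8 kb upstream of IGFBP3, with a fold enrichment of 2.62, 18 fragments and a q-value of 1.

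**Figure D1:**
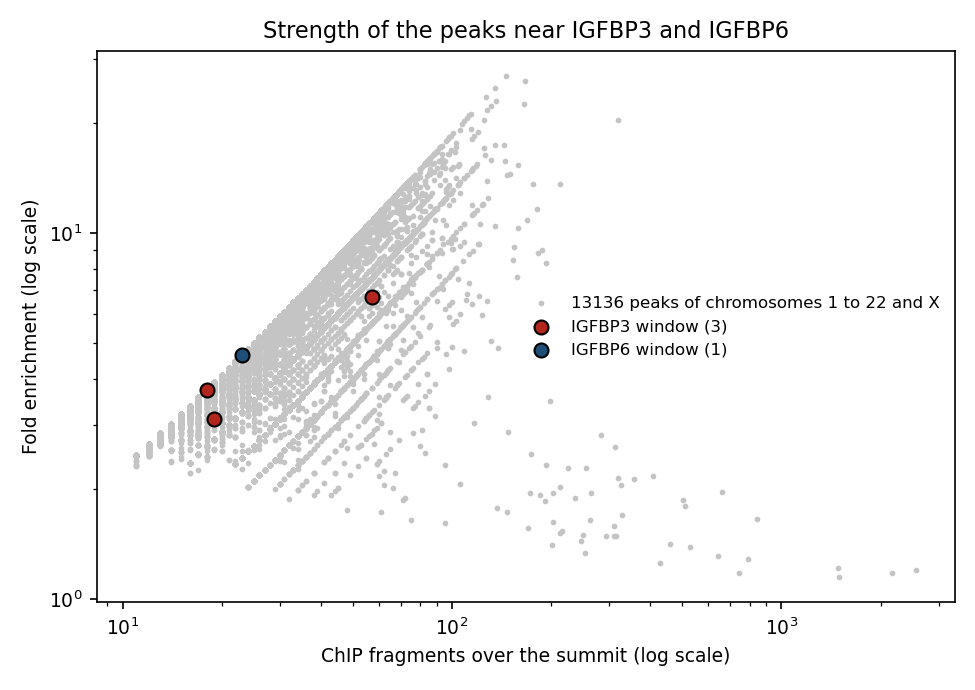
Each grey point is 1 of 13136 peaks of chromosomes 1 to 22 and X, plotted by ChIP fragments over the summit and by fold enrichment, both on log scales. The upstream IGFBP3 peak stands apart at 57 fragments and a fold enrichment of 6.71, while the other 3 coloured points lie between 18 and 23 fragments.

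No peak fell within 100 kb of IGFBP2 (chromosome 2 positions 217498000 to 217529000, plus strand) or of IGFBP5 (217537000 to 217560000, minus strand). The joined window spans 262 kb, and a count of 0 there allows up to 14.1 peaks per Mb (upper end of the 95% Poisson interval). This limit includes the 4.49 per Mb of the whole list and the 4.57 of chromosome 2, so that a lower density was not detectable in the window. A window without peaks was common: 36.3% of 11161 tiles of this length held at least 1 peak and 63.7% held 0. Tiles that span unassembled sequence are counted as well, which raises the share with 0. A peak over the genome-wide background needed at least 11 fragments over its summit, or a fold enrichment of 2.48, to reach the threshold of the list. Weaker binding, and binding in sequence to which reads do not map uniquely, would therefore be missed.

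The nearest summit to IGFBP2 was 220.6 kb upstream of its 5′ end, at positions 217277271 to 217277478. The same peak was the nearest to IGFBP5, 282.6 kb from its 5′ end in the direction of transcription. It had a fold enrichment of 3.24, 17 fragments and a q-value of 0.458. On the other side, towards TNP1, the next summit lay 1587.6 kb upstream of IGFBP5. That peak covered positions 219147284 to 219147864 and was strong, with a fold enrichment of 11.2, 59 fragments and a q-value of 5.04e-18, and 97.1% of peaks had a fold enrichment at or below its value. IGFBP2 and IGFBP5 thus shared a stretch of 1.87 Mb between neighbouring summits. Of 13113 such stretches, 327 (2.49%) were as long or longer, with a median of 30.0 kb. Those 327 made up 42.2% of the sequence between the first and last peaks of the chromosomes, and 32 of them lay on chromosome 2. A position inside so long a stretch was therefore not rare, although stretches that span unassembled sequence are counted as well.

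**Figure D2:**
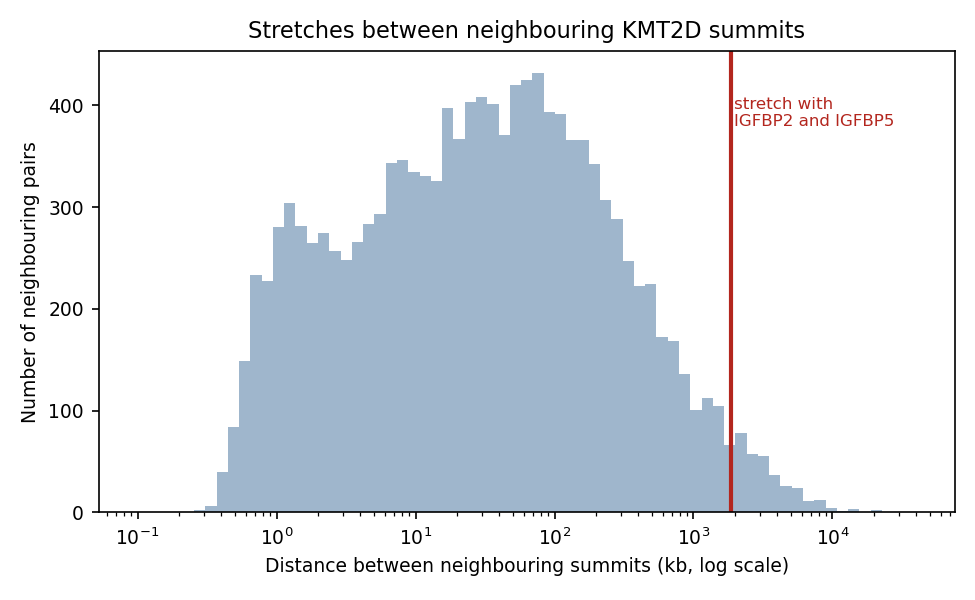
The histogram counts the 13113 pairs of neighbouring summits by the distance between them (kb, log scale). The line marks the stretch of 1.87 Mb that contains IGFBP2 and IGFBP5, in the upper tail.

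With a reach of 1000 kb on each side, IGFBP5 had 3 peaks, or 1.48 per Mb (95% Poisson interval 0.306 to 4.33), and IGFBP2 had the same number, or 1.48 per Mb (0.305 to 4.32). Both genes share the same 3 peaks, so the counts are not independent. Both upper limits lay slightly below the 4.49 per Mb of the whole list, but grouping of peaks makes these intervals too narrow. The 3 peaks around IGFBP5 had fold enrichments of 3.25, 3.35 and 3.24, on 23, 16 and 17 fragments, and 0 of them had a q-value of at most 0.05. All 3 lay on the side of IGFBP2. Of 1437 tiles of that length, 41.7% held as few peaks or fewer. IGFBP3 had 9 peaks within the same reach, 4 of them with a q-value of at most 0.05, or 4.48 per Mb (2.05 to 8.50). Density within 1000 kb was 13.8 times higher at IGFBP6 than at IGFBP5 (95% exact conditional interval 4.40 to 69.6). This pair and the reach were chosen after the counts were seen, and neighbouring peaks occur in groups, which makes the interval too narrow. The IGFBP6 count also includes the block of peaks from -980.5 to -816.1 kb, near the edge of the reach.

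**Figure D3:**
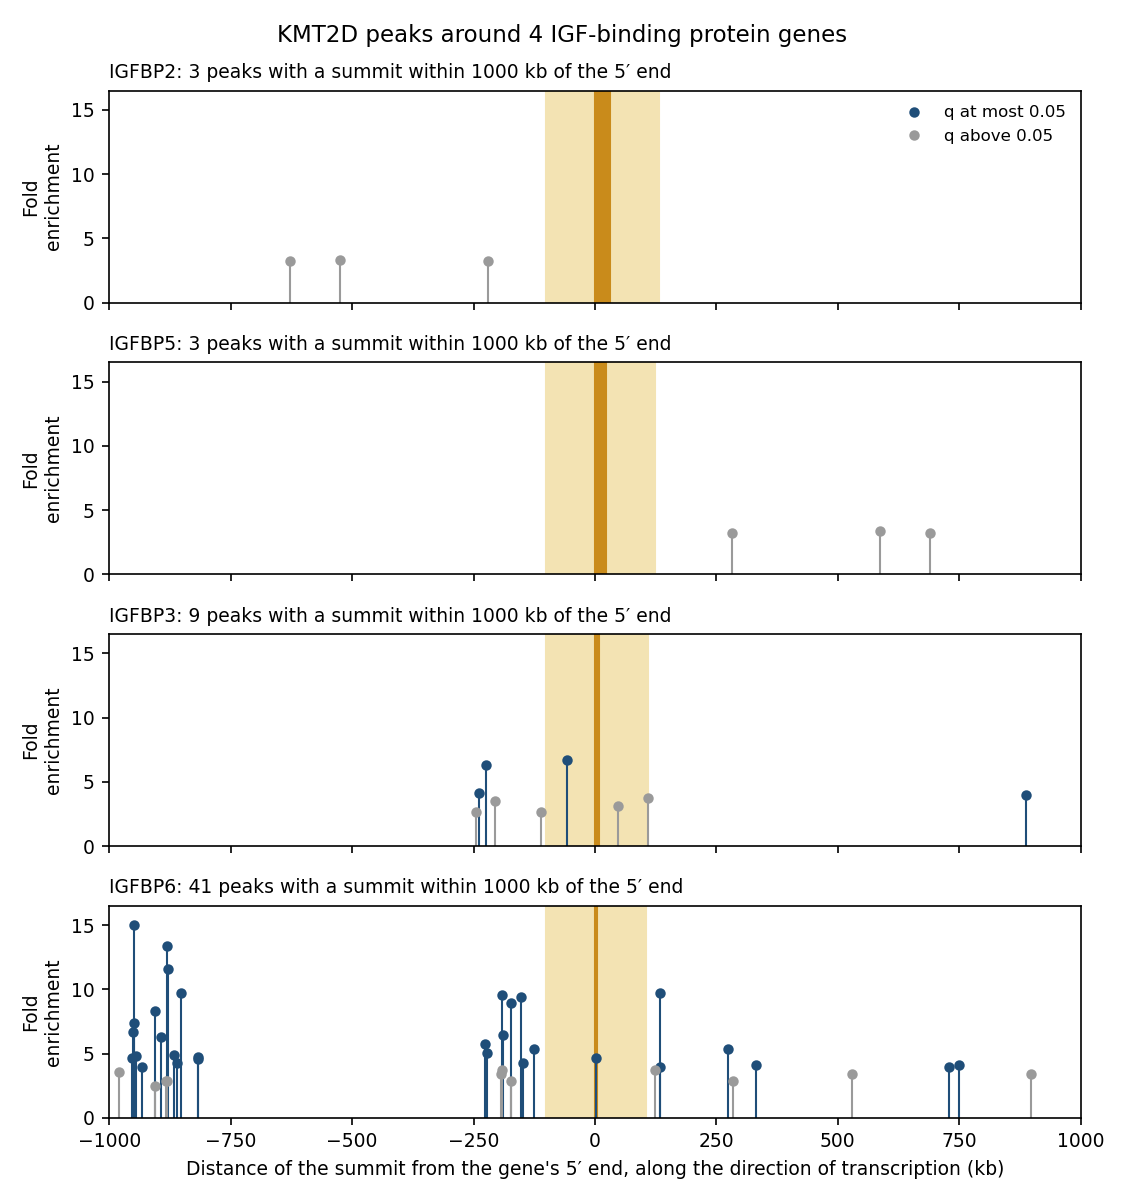
Each panel shows the KMT2D peaks around 1 gene by the distance of the summit from the gene's 5′ end along the direction of transcription (kb) and by fold enrichment, with dark points for q-values of at most 0.05 and grey points for the others. The dark band is the gene and the pale band the window of 100 kb on each side. The windows of IGFBP2 and IGFBP5 are empty, that of IGFBP6 holds 1 peak between denser groups, and that of IGFBP3 holds 3.

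The order of peak counts among the 4 genes changed with the reach. Within 50 kb, IGFBP3 and IGFBP6 had 1 peak each and the other genes 0. Within 100 kb IGFBP3 led with 3, or 14.4 per Mb (95% Poisson interval 2.96 to 41.9), and IGFBP6 had 1, or 4.88 per Mb (0.124 to 27.2). These intervals overlapped and included the average of the list. With q-values of at most 0.05 both genes had 1 peak, so that the lead of IGFBP3 was lost. Of tiles as long as the IGFBP6 window, 31.8% held at least 1 peak. Of tiles as long as the IGFBP3 window, 32.1% held at least 1 peak and 12.6% held at least 3. At that q-value threshold 23.6% of tiles held at least the 1 peak of IGFBP3. For IGFBP2 and IGFBP5 taken singly, 34% and 33.3% of tiles held at least 1. Within 200 kb IGFBP6 led with 13 peaks, IGFBP3 had 4, and IGFBP2 and IGFBP5 still had 0.

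**Figure D4:**
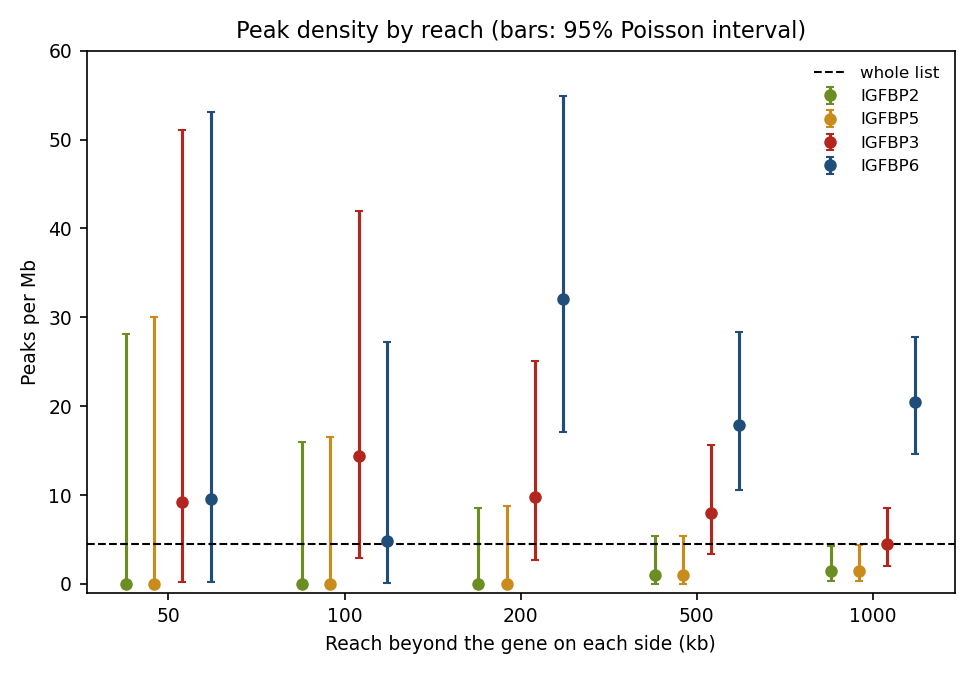
Points give peaks per Mb around each gene for 5 reaches (kb on each side), bars the 95% Poisson interval and the dashed line the 4.49 per Mb of the whole list. The intervals of all 4 genes overlap the line at a reach of 50 and 100 kb, and from 200 kb on that of IGFBP6 lies above it. At 1000 kb those of IGFBP2 and IGFBP5 lie below it, though both rest on the same peaks. Peaks occur in groups, which makes the bars too narrow.

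The 4 windows together covered 676 kb and held 5.92 peaks per Mb (95% Poisson interval 1.61 to 15.2). This was 1.32 times the density of the rest of the list (95% exact conditional interval 0.359 to 3.38), an interval that includes 1. With a reach of 200 kb the ratio was 2.97 (1.73 to 4.76) and with 500 kb 1.96 (1.29 to 2.85), and both intervals lay above 1. IGFBP6 gave 13 of the 17 peaks at 200 kb and 18 of the 27 at 500 kb. Neighbouring peaks occur in groups, which makes these intervals too narrow, so no enrichment of the 4 genes as a set is drawn from them. Median fold enrichment was 4.20 over the 4 peaks and 4.01 over the list. Of the 4 peaks, 2 met a q-value of 0.05 (50%, 95% Wilson interval 15.0 to 85.0%), near the 58.8% of the list. The 4 peaks lay farther from other peaks than most, with 54.8 kb to the nearest summit at the least, a distance that 79.1% of peaks did not exceed.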

How the data were processed

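KMT2D ChIP-seq in KMT2D-WT SCC23 cells was analysed from 1 peak list, grouped by the labels. Per the methods, the authors aligned reads to hg19 with Bowtie2 and gave MACS2 those that mapped uniquely, at a p-value below 0.01. The control is not named. The deposited fold enrichment is a ratio with a pseudocount added to both parts, the deposited significance columns hold the −log10 p-value and −log10 q-value at the summit, and the deposited score is derived from the former.

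The ChIP fragments at each summit, and the background beneath them, were solved from fold enrichment and p-value, which fix both when fragments are whole numbers. This met the deposited −log10 p to within 0.02 for 99.98% of peaks, including the 4 described. On 3 simulated lists of at least 11927 peaks, at least 99.99% of the fragment numbers came back exactly. These lists were made with the same formula, so they test the arithmetic and not whether the deposited values follow it. Library depth was not analysed here.

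Named genes were the 4 of the rule, and their windows and the comparisons were chosen with earlier results of these data known. Strand and neighbours came from GENCODE 44, promoters from RefSeq (GRCh38.p14), and no coordinate was converted. Of the RefSeq entries of a gene, that closest to the start of its canonical GENCODE transcript was used. Tiles did not overlap and ran between the outermost peaks of each chromosome. Unassembled sequence between those peaks was left out neither of the tiles nor of the average density of the list. Other IGF pathway genes were not analysed here for want of an hg19 annotation. Scripts ran under Python 3.11.15 with scipy 1.17.1, numpy 2.4.6, matplotlib 3.10.9 and pandas 2.3.3.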

Additional observations from a re-analysis of the deposited data

How the results depend on the processing

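Alternatives gave 32 values, of which 22 stayed close to the value reported, 9 moved and 1, the nearest summit to IGFBP3, changed sides of the gene. Close meant within 1.5 times for counts, fold enrichment and the stretch, within the interval for shares and ratios, and within 1 kb for distances. The number of peaks in the windows fell from 4 to 2 with q-values of at most 0.05, to 2 with q-values of at most 0.01 and to 2 with a reach of 50 kb, and rose to 17 with 200 kb and 27 with 500 kb. Restricting the list to q-values of at most 0.05 moved the nearest summit along the gene from -220.6 to -1104.5 kb for IGFBP2, from 282.6 to 1166.5 kb for IGFBP5 and from 46.6 to -57.0 kb for IGFBP3, where negative values lie upstream of the 5′ end. It stayed at 1.6 kb for IGFBP6. The share of tiles with at least as many peaks as the window moved to 23.6% for IGFBP3 and 23.3% for IGFBP6 under that threshold. For windows with 0 peaks this share is 100% by construction and no alternative was run. The density of the windows over the rest of the list rose from 1.32 to 2.97 times with a reach of 200 kb and 1.96 times with 500 kb. Both values were counted as close only because the interval of the reported ratio, 0.359 to 3.38, is wide. The stretch around IGFBP2 and IGFBP5 lengthened from 1.87 to 2.75 Mb at both q-value thresholds. Reaches of 99 and 500 kb, the filter on raised background and the stretch itself were chosen after seeing the data. Without the peak of raised background 3 peaks were left, and 3 with a reach of 99 kb. No paired analysis was possible because only 1 sample had values. The single library cannot show whether the weaker peaks would be found again.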

Other observations

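Beyond the window of IGFBP3, 5 further peaks lay between 111.8 and 244.0 kb upstream of its 5′ end, all chosen after their values were seen. The strongest by fold enrichment covered chromosome 7 positions 46184989 to 46185434, 224.1 kb upstream, with a fold enrichment of 6.29, 32 fragments and a q-value of 1.20e-06 over a background at the genome-wide level. A peak at positions 46200588 to 46200779 had 41 fragments and a fold enrichment of 4.15 over a background of 2.74 times that level. The upstream peak inside the window, at 6.71, was thus close in fold enrichment to the strongest peak of this group. No gene was assigned to these peaks.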
